A study of Mus musculus with 17 samples.

Results

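The 5 genes described here, Cyp1a1, Cyp1b1, Ahr, Ahrr and Tiparp, belong to the system of the aryl hydrocarbon receptor (AHR). They were taken from the gene count table by their symbols, as 5 of the 45777 genes listed, and each of the 5 was among the 22052 genes that passed a filter on low counts. The 5 were chosen with values from these same libraries in view, so their levels and fold changes are a description and carry no p-value.

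RNA was sequenced from lungs of male wild-type C57BL/6 mice, which arrived at 6 weeks of age and were irradiated after a week of acclimatization. The left lung received a focal dose of 65 Gy or 75 Gy in a single fraction, and control mice received no radiation. Lungs were collected after 2 weeks, called the inflammation stage, or after 6 weeks, called the fibrosis stage. The 17 libraries formed 6 groups of 3 libraries each, except that only 2 libraries of the group of 65 Gy at 6 weeks were analysed here. Controls were libraries 3126 to 3128 at 2 weeks and 3135 to 3137 at 6 weeks. The 65 Gy libraries were 3129 to 3131 and then 3138 and 3140, and the 75 Gy libraries were 3132 to 3134 and then 3141 to 3143. The RNA of irradiated mice came from the lesions, so each library mixed many cell types, and fewer cells of a type could not be told apart from less RNA per cell. The labels do not say that each library was a separate mouse, so p-values measure the spread between these libraries.

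Levels are in CPM, that is, read counts scaled to a common library size after correction with TMM factors. The totals ran from 46764569 to 66797879 counts, with a median of 57608149. Markers of lung cells were abundant in every library, with 14885 to 27447 CPM summed over 5 alveolar type 2 genes and 1988 to 3659 CPM over 5 alveolar type 1 genes. Markers of 3 other tissues in which Cyp1a1 is known to be inducible were low beside those of lung cells. These were 8 hepatocyte genes, of which 4 to 6 were at 0 in a library (1.30 to 4.13 CPM in sum), 7 enterocyte genes (5.41 to 11.3 CPM) and 5 keratinocyte genes (1.46 to 4.64 CPM). In a library, 2 to 5 of the enterocyte genes and 0 to 3 of the keratinocyte genes were at 0. The cell mixture differed between the groups. The sum of 10 endothelial markers was 4842 to 5721 CPM in controls and 1803 to 3582 CPM in irradiated lungs, that of 6 club cell markers was 16510 to 21400 and 6512 to 14351 CPM, and that of 5 macrophage markers was 4129 to 10235 and 8155 to 14104 CPM.

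AHR is a transcription factor that waits in the cytoplasm with the chaperone HSP90 and the cochaperone p23. Ligands such as polycyclic aromatic hydrocarbons, dioxins and some products of tryptophan release it to the nucleus, where it pairs with ARNT and binds the core GCGTG of the xenobiotic response element. Cyp1a1 and Cyp1b1 encode monooxygenases that oxidize such ligands, and Cyp1a1 is the classical readout of the receptor because it is nearly silent without a ligand. Ahrr encodes a repressor that competes for ARNT, and Tiparp encodes an ADP-ribosyltransferase that marks the receptor for breakdown, so both close a negative feedback loop. In the lung, Cyp1a1 is known to be inducible in endothelium and in airway and alveolar epithelium.

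The bases before the transcription start are shown to mark where the core occurs in them. They come from RefSeq on GRCm38.p6, read from 5′ to 3′ on the strand of the gene, and capitals mark the core GCGTG or its reverse complement CACGC. An entry was found for 4 of the 5 genes, and Ahr is only named. The 250 bases before the start are given for Cyp1a1 (chr9:57697363-57697612, plus strand), Cyp1b1 (chr17:79715062-79715311, minus strand) and Ahrr (chr13:74292332-74292581, minus strand). For Cyp1a1 the start used lies inside the annotated gene, which begins at 57687928, and the bases before that position were not searched. For Tiparp, 213 bases are given (chr3:65528197-65528409, plus strand), because the bases nearest to the start lie in an annotated exon.
Cyp1a1: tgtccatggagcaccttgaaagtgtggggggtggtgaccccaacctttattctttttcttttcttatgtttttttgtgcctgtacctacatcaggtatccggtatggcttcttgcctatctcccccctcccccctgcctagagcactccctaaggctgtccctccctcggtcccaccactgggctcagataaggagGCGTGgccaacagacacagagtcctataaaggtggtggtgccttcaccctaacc
Cyp1b1: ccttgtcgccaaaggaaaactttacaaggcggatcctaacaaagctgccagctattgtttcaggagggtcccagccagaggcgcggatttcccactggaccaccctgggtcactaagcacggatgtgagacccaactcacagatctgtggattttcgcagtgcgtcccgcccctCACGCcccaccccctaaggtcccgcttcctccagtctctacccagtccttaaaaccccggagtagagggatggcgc
Ahrr: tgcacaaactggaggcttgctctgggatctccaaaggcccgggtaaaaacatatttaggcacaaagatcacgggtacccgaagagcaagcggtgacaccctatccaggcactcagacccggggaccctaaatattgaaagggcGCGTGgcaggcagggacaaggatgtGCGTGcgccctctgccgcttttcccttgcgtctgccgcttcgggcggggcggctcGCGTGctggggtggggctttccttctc
Tiparp: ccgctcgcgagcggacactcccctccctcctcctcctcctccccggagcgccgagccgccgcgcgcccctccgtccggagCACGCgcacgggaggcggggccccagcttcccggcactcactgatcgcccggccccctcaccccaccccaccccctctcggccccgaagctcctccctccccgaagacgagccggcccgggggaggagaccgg

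The core was the only motif searched, on either strand. It occurred 1 time for Cyp1a1, with its first base 54 bases before the start. For Cyp1b1 it occurred 1 time, 76 bases before the start. Ahrr held 3 cores, which began 107, 82 and 27 bases before the start, and Tiparp held 1 at 170 bases. Of 32841 promoter windows of 250 bases, 9250 (28.17%) held at least 1 core on either strand and 8.636% held at least 2. A match is a run of letters and does not show binding. Bases farther from the start were not searched, so sites of the receptor there would be missed.

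The genes stood at very different levels. Per kilobase of exon, Ahr was highest, with a median of 15.8 CPM per kb over the 17 libraries (12.4 to 23.2), followed by Tiparp with 12.2 CPM per kb (9.50 to 17.5). Cyp1a1 had a median of 3.13 CPM per kb, but with a range from 0.442 to 102 CPM per kb. Cyp1b1 had 2.01 CPM per kb (1.76 to 3.36), and Cyp1a1 exceeded it in 11 of the 17 libraries, so these neighbours overlapped. Ahrr was lowest, with 0.0670 CPM per kb (0.0258 to 0.119), below each other gene in every library. Ahr and Tiparp overlapped in range, whereas both stood above Cyp1b1 in 17 of 17 libraries.

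Cyp1a1 (GeneID 13076, chromosome 9, 57687928 to 57703824 of GRCm38.p6) differed mostly between libraries of the same group. At 2 weeks, control libraries 3126, 3127 and 3128 held 22.7, 18.2 and 284 CPM. Libraries 3129, 3130 and 3131 of 65 Gy held 6.57, 6.09 and 4.08 CPM, and libraries 3132, 3133 and 3134 of 75 Gy held 97.6, 104.4 and 1.23 CPM. Hence 1 control and 2 of the 75 Gy libraries were high, the third 75 Gy library was the lowest of all, and the 65 Gy libraries stood close together.

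At 6 weeks, control libraries 3135, 3136 and 3137 held 9.49, 8.74 and 16.5 CPM. Libraries 3138 and 3140 of 65 Gy held 53.9 and 4.61 CPM, on either side of the controls. Libraries 3141, 3142 and 3143 of 75 Gy held 4.18, 1.96 and 1.57 CPM, each below every control of that time.

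The highest library exceeded the lowest by 231-fold, and in counts the range was 70 to 14906, so that counting error was small beside it. The SD of log2 CPM around the group means was 2.01. Among the 10434 genes with at least its mean level, only Reg3g (2.06), Bpifa1 (2.04) and Bpifb1 (2.04), genes for secreted defense proteins of the airway, varied more within groups. The same SD was 0.24 for Cyp1b1, 0.18 for Ahr, 0.45 for Ahrr and 0.15 for Tiparp. The between-group share of the variance of log2 CPM was 44.5% for Cyp1a1, 35.97% for Cyp1b1 and 43.68% for Ahrr. This share was 76.2% for Ahr and 74.9% for Tiparp.

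**Figure D1:**
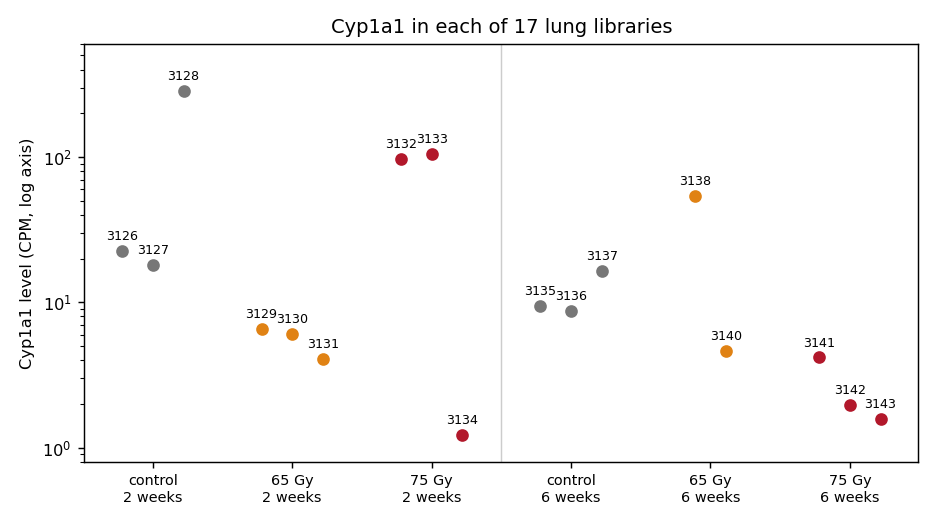
Level of Cyp1a1 in CPM on a log axis in each of the 17 libraries, with 1 numbered point per library, ordered by dose and time. Libraries 3128, 3132, 3133 and 3138, from 3 different groups, lie between 53.9 and 284 CPM, whereas the other 13 lie between 1.23 and 22.7 CPM.

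Group means of Cyp1a1 were therefore imprecise wherever a high library was present. They were 108 ± 152 CPM in controls (SD, n = 3), 5.58 ± 1.32 CPM after 65 Gy (n = 3) and 67.7 ± 57.7 CPM after 75 Gy (n = 3) at 2 weeks. At 6 weeks they were 11.6 ± 4.30 CPM in controls (n = 3), 29.2 ± 34.8 CPM after 65 Gy (n = 2) and 2.57 ± 1.41 CPM after 75 Gy (n = 3).

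Standard errors (SE) were derived from the F statistic of the fit. The log2 fold changes against controls were −4.28 (SE 1.31) for 65 Gy and −0.68 (SE 1.14) for 75 Gy at 2 weeks. At 6 weeks they were 1.34 (SE 1.27) for 65 Gy and −2.16 (SE 1.26) for 75 Gy. Both doses of a time were compared with the same controls. Their sign rested on single libraries in 2 of the 4 comparisons. Without control library 3128, the value at 2 weeks became −1.87 for 65 Gy and 1.73 for 75 Gy, and without 3138 that of 65 Gy at 6 weeks became −1.32. Without any of the 17 libraries in turn, the value of 75 Gy at 6 weeks stayed between −2.72 and −1.82.

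Differentially expressed genes (DEGs) had to reach 2 limits, an adjusted p no higher than 0.05 and a log2 fold change of 1 or more in either direction. Of the 5 genes, 1 met both limits after 65 Gy at 2 weeks, namely Cyp1a1. In that comparison 4.35% of all genes tested met both limits and 0.88% were lower DEGs. Because the 5 genes were chosen with their values in view, counts of them are a description and not a test. Cyp1a1 did not meet both limits when 3128 was left out, nor under several other settings. None of the 5 met both limits after 75 Gy at 2 weeks (7.74% of genes), after 65 Gy at 6 weeks (5.28%) or after 75 Gy at 6 weeks (10.4%), in edgeR's quasi-likelihood test. In all 3 libraries of 65 Gy at 2 weeks and of 75 Gy at 6 weeks Cyp1a1 was below every control, as 29.4% and 57.1% of all genes also had no overlap there.

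Between the doses, Cyp1a1 was higher after 75 Gy at 2 weeks (log2 fold change 3.60, SE 1.27, with overlapping libraries) and lower after 75 Gy at 6 weeks (−3.50, SE 1.36, with every 75 Gy library below both 65 Gy libraries, as 30.9% of genes had no overlap). Controls of 6 weeks were all below those of 2 weeks (−3.23, SE 1.24), where 23.6% of genes had no overlap. Beside 3128, the controls of 2 weeks were at 22.7 and 18.2 CPM, close to the highest control of 6 weeks at 16.5 CPM. Likewise, 3140 of 65 Gy, at 4.61 CPM, was close to 3141 of 75 Gy, at 4.18 CPM.

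Cyp1b1 (GeneID 13078, chromosome 17, 79706940 to 79715061), the other monooxygenase, was nearly level. Controls held 11.7, 11.5 and 15.4 CPM in libraries 3126 to 3128. Libraries 3129 to 3131 of 65 Gy held 12.9, 10.6 and 11.3 CPM, and libraries 3132 to 3134 of 75 Gy held 13.1, 19.6 and 14.0 CPM. The highest value was in 3133, and the 75 Gy libraries were each above every 65 Gy library of that time, as 10.9% of all genes had no overlap there.

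At 6 weeks Cyp1b1 was at 11.7, 10.6 and 12.6 CPM in controls 3135 to 3137. It was at 16.1 and 10.3 CPM in libraries 3138 and 3140 of 65 Gy and at 10.7, 13.3 and 11.1 CPM in 3141 to 3143 of 75 Gy. The groups overlapped in each comparison with controls, with log2 fold changes of −0.15 (SE 0.19) and 0.28 (SE 0.18) after 65 and 75 Gy at 2 weeks and of 0.18 (SE 0.21) and 0.01 (SE 0.19) at 6 weeks. The value of 65 Gy at 6 weeks was −0.17 without 3138 and 0.48 without 3140. Its 4 highest libraries, 3128, 3133, 3134 and 3138, included 3 of the 4 highest for Cyp1a1, but its highest value was only 1.91-fold its lowest.

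Ahr (GeneID 11622, chromosome 12, 35497979 to 35534989), which encodes the receptor itself, was lower on average in each irradiated group than in its controls. At 2 weeks it was at 86.7, 124.6 and 131.9 CPM in controls 3126 to 3128. Libraries of 65 Gy held 86.5, 84.0 and 84.6 CPM and those of 75 Gy 98.6, 99.2 and 76.3 CPM. Control 3126 was close to the irradiated libraries, so the margin between 65 Gy and controls was narrow and the 75 Gy libraries overlapped with controls.

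At 6 weeks the separation was wider. Controls 3135 to 3137 held 142.8, 133.1 and 124.6 CPM of Ahr, both libraries of 65 Gy held 103.9 and 97.7 CPM, and those of 75 Gy held 85.2, 78.0 and 80.9 CPM. Every 65 Gy library was below every control, where 56.3% of all genes had no overlap, and every 75 Gy library was below both 65 Gy libraries, where 30.9% had none.

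The log2 fold changes of Ahr against controls were −0.43 (SE 0.13) and −0.32 (SE 0.13) for 65 and 75 Gy at 2 weeks and −0.41 (SE 0.15) and −0.71 (SE 0.13) at 6 weeks. At 2 weeks they ranged from −0.59 to −0.31 and from −0.48 to −0.21 when each library was left out in turn, and the ends of both ranges were without 3126 and without 3128. At 6 weeks the ranges were −0.45 to −0.35 and −0.76 to −0.66.

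The level of Ahr was associated with the markers of several cell types. Over the 17 libraries its log2 CPM had a Pearson r of 0.84 (Spearman rho 0.82) with that of the summed endothelial markers. With alveolar type 1 and club cell markers r was 0.76 (rho 0.77) and 0.72 (rho 0.72). With macrophage markers it was −0.83 (rho −0.70). With enterocyte and hepatocyte markers, which were low in these lungs, it was 0.66 and −0.62. With fibroblast, pericyte and smooth muscle, and alveolar type 2 markers it was −0.18, 0.40 and −0.07. Group means were not removed from these values for Ahr. These points share library, depth and irradiation group, so the values are a description. Per 1000 CPM of endothelial markers, Ahr stood at 17.9 to 25.3 CPM in controls and at 24.3 to 42.3 CPM in irradiated lungs, so the ratio was not lower there. The part of the cell mixture in the level of Ahr was not tested. Cyp1a1 had an r of 0.57 with the endothelial markers. With those of alveolar type 1, club, fibroblast and alveolar type 2 cells it was 0.46, 0.42, 0.35 and 0.34. After the group means were removed, the values in that order were 0.77, 0.48, 0.49, 0.31 and 0.62. The part of these cells in the level of Cyp1a1 was not tested. Per 1000 CPM of endothelial markers, Cyp1a1 ranged from 0.683 CPM in 3134 to 49.7 CPM in 3128.

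Ahrr (GeneID 11624, chromosome 13, 74211118 to 74292331), the repressor, was near the floor, with 12 to 65 counts per library. Controls of 2 weeks held 0.244, 0.471 and 0.763 CPM, libraries of 65 Gy 0.387, 0.634 and 0.410 CPM, and those of 75 Gy 0.648, 0.709 and 1.13 CPM. At 6 weeks the controls held 0.632, 0.464 and 0.541 CPM, the 65 Gy libraries 1.07 and 0.649 CPM, and those of 75 Gy 0.541, 0.725 and 0.475 CPM. The highest value, in 3134, came from the library with the lowest Cyp1a1.

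The log2 fold changes of Ahrr were −0.05 (SE 0.39), 0.74 (SE 0.38), 0.65 (SE 0.41) and 0.09 (SE 0.38) in the order 65 Gy and 75 Gy at 2 weeks, then 65 Gy and 75 Gy at 6 weeks. Without 3128, those of 2 weeks were 0.42 and 1.21. With so few counts, differences of this size were not resolved.

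Tiparp (GeneID 99929, chromosome 3, 65528447 to 65555518), the feedback ADP-ribosyltransferase, did not follow Cyp1a1. At 2 weeks it was at 53.4, 54.7 and 52.2 CPM in controls, at 45.7, 53.2 and 52.9 CPM after 65 Gy and at 48.2, 43.9 and 44.3 CPM after 75 Gy. The 75 Gy libraries were all below the controls, where 30.2% of all genes had no overlap, and the control 3128, which had 284 CPM of Cyp1a1, held the lowest Tiparp of its group.

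At 6 weeks Tiparp was at 62.4, 66.1 and 63.8 CPM in controls, at 41.4 and 56.5 CPM in 3138 and 3140 after 65 Gy, and at 56.8, 68.0 and 76.2 CPM after 75 Gy. Library 3138, with the highest Cyp1a1 of that time, had the lowest Tiparp of all 17. The log2 fold changes were −0.08 (SE 0.12) and −0.23 (SE 0.12) after 65 and 75 Gy at 2 weeks and −0.39 (SE 0.13) and 0.06 (SE 0.12) at 6 weeks. The value of 65 Gy at 6 weeks was −0.17 without 3138 and −0.62 without 3140. Controls of 6 weeks were all higher than those of 2 weeks (0.26, SE 0.12), where 23.6% of genes had no overlap.

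**Figure D2:**
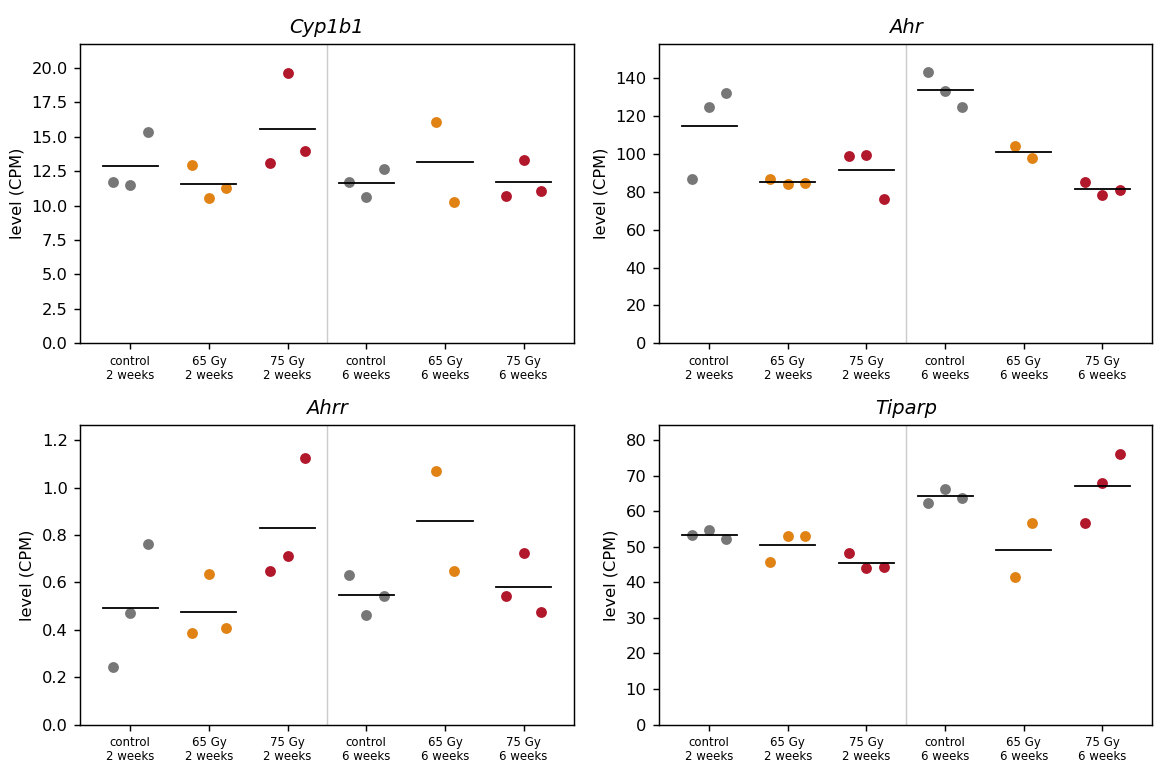
Levels of Cyp1b1, Ahr, Ahrr and Tiparp in CPM on linear axes that start at 0, with 1 point per library and a line at each group mean. Ahr shows the clearest step, from 124.6 to 142.8 CPM in controls of 6 weeks to 78.0 to 85.2 CPM after 75 Gy, while Cyp1b1 stays between 10.3 and 19.6 CPM.

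**Figure D3:**
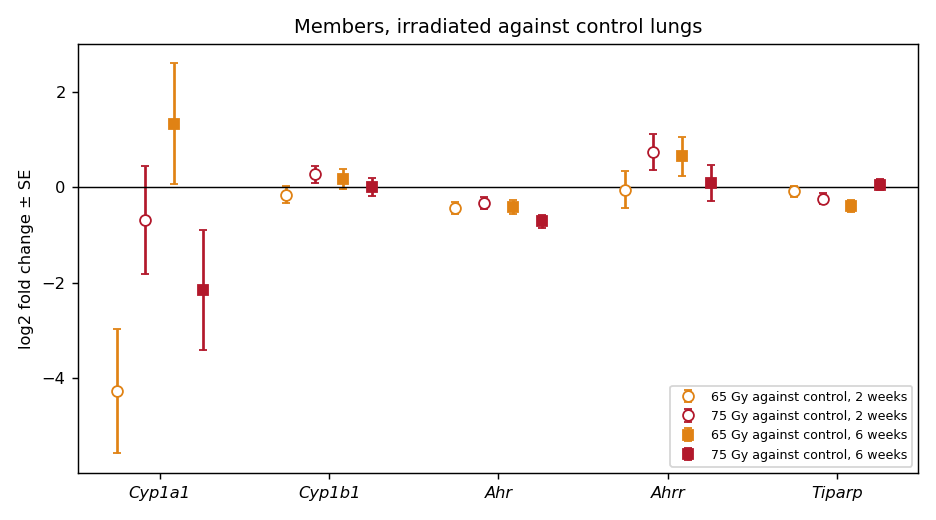
Log2 fold changes with their SE for the 5 genes in the 4 comparisons of an irradiated group with controls of the same time, which both doses share. The bars of Cyp1a1 span more than 1 log2 unit on either side of each point, whereas those of Ahr and Tiparp are at most 0.15.

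The 5 genes did not vary as a block. Over the 17 libraries the Pearson r of log2 CPM between Cyp1a1 and Cyp1b1 was 0.58 (rho 0.46), and it was 0.30 without 3128 and 3133, the libraries farthest from the median of Cyp1a1. It was 0.55 with Ahr (rho 0.74), 0.10 with Ahrr (rho 0.08) and −0.44 with Tiparp (rho −0.42). Each gives an association across libraries that share groups and scaling, without a test.

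Other known targets of the receptor were examined for the libraries in which Cyp1a1 was high. From a list of 20 such genes, 16 were tested, and Cyp1a2, Epgn, Fgf21 and Il22 had too few counts. Nqo1, a quinone reductase, and Ugt1a6a, a glucuronosyltransferase, were highest in the same 4 libraries as Cyp1a1, and both were singled out after their values were seen. Nqo1 was at 12.8, 17.7, 16.9 and 15.1 CPM in 3128, 3132, 3133 and 3138 and at 5.87 to 11.2 CPM in the other 13 libraries. Ugt1a6a was at 63.3, 62.5, 60.0 and 66.6 CPM there and at 29.9 to 59.2 CPM elsewhere. Its reads can be shared with Ugt1a6b, which uses the same exons, so its level is uncertain. In 3134, where Cyp1a1 was lowest, both were also lowest.

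**Figure D4:**
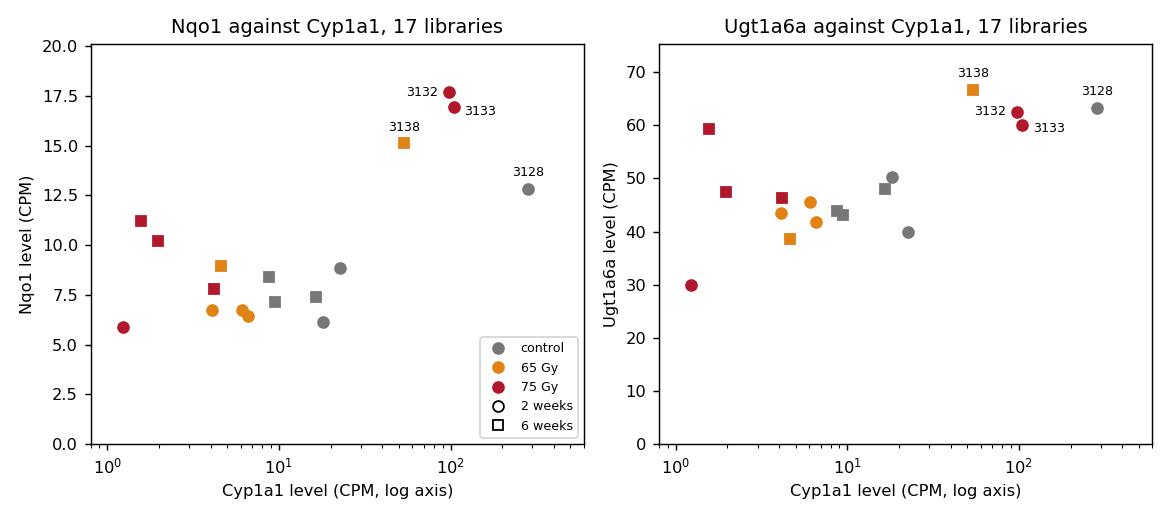
Levels of Nqo1 (left) and Ugt1a6a (right) in CPM on linear axes against the level of Cyp1a1 in CPM on a log axis, with 1 point per library, color for dose and shape for time. The 4 numbered libraries have the highest values of both genes, and the other 13 libraries lie at 5.87 to 11.2 CPM of Nqo1 and 29.9 to 59.2 CPM of Ugt1a6a.

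Among all genes tested, 21 of 22052 (0.0952%), Cyp1a1 included, had these 4 libraries as their highest 4, and 2 of the 16 other targets were among them. The rest were on none of the lists of the AHR system. The Pearson r of log2 CPM with Cyp1a1 was 0.75 for Gsta2, a glutathione transferase that shares reads with the near-identical Gsta1, 0.67 for Ugt1a6a, 0.64 for Nqo1 and 0.63 for Aldh3a1, an aldehyde dehydrogenase. After the group means were removed, r was 0.89, 0.88, 0.88 and 0.62. Such values also occurred outside the AHR battery, with 0.84 for Gstm1, 0.82 for Aox3, 0.76 for Cbr2, 0.73 for Cyp2f2 and 0.77 for the summed endothelial markers, and these genes were picked out after their values were seen. Over all 16 targets the median r was −0.09, and 0.15 after removal of group means, against −0.04 and −0.02 over all genes. The lowest r of the list were those of Ereg (−0.58), Serpinb2 (−0.55) and Slc7a5 (−0.54).

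The genes whose log2 CPM was most like that of Cyp1a1, among 14483 genes whose mean log2 CPM was 1 or more, were Car14 (r 0.91), Mras (0.88), Tmem221 (0.87), Ces1f (0.87) and Wfdc1 (0.86). Car14, a membrane-bound carbonic anhydrase, was at 34.8, 22.4, 17.4 and 13.3 CPM in 3128, 3132, 3133 and 3138 and at 6.16 CPM in 3134. Ces1f, a carboxylesterase, was at 21.9, 19.6, 17.9 and 20.7 CPM in those 4 libraries and at 2.81 CPM in 3134. Without 3128 and 3133 the 5 values of r were between 0.80 and 0.86. For Cyp1b1 the most similar genes were Zfp3 (0.75), Pramef8 (0.70), Gm9855 (0.69), Efna2 (0.69) and Bbs10 (0.69), and without 3133 and 3138 the 5 values were 0.47, 0.49, 0.70, 0.59 and 0.51. These genes were found by a search over many genes in 17 libraries, and no p-value was taken from r.

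Of 5 genes for partners and chaperones of the receptor, 1 was a DEG in each comparison with controls, beside 4.35%, 7.74%, 5.28% and 10.4% of all genes, and it was Arnt2, a relative of ARNT that can also pair with PAS proteins. Arnt2 was at 1.31 ± 0.206 CPM in controls of 2 weeks (SD, n = 3), at 3.50 ± 0.303 CPM after 65 Gy (n = 3) and at 3.58 ± 1.25 CPM after 75 Gy (n = 3). At 6 weeks it was at 1.17 ± 0.168 CPM in controls (n = 3), 3.89 ± 0.142 CPM after 65 Gy (n = 2) and 4.88 ± 0.593 CPM after 75 Gy (n = 3). Its log2 fold changes were 1.41 and 1.44 for 65 and 75 Gy at 2 weeks (SE 0.22 each, adjusted p of 0.00104 and 0.000498 in edgeR's quasi-likelihood test). At 6 weeks they were 1.73 (SE 0.24, adjusted p = 0.000371) and 2.06 (SE 0.23, adjusted p = 2.08e-05). It was still a DEG in each comparison when any single library was left out.

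Arnt, the main partner, was at 66.8 to 96.1 CPM over the 17 libraries. Its log2 fold change after 75 Gy at 6 weeks was −0.42 (SE 0.11, adjusted p = 0.00719), under the fold limit of a DEG. Hsp90ab1 and Ptges3, the latter of which encodes p23, had log2 fold changes between −0.29 and 0.18 in the comparisons with controls. Those of Hsp90aa1, the inducible HSP90 gene, were −0.61, −0.42, 0.39 and 0.63 in the order used for Ahrr, and the last had an adjusted p of 0.0262 but was under the fold limit. Between controls of 2 and 6 weeks, where 0.576% of all genes were DEGs, Hsp90aa1 fell by 1.09 (SE 0.21, adjusted p = 0.0175). Hsp90ab1 (−0.67, adjusted p = 0.0220) and Ptges3 (−0.50, adjusted p = 0.0302) were also lower in controls of 6 weeks, short of the fold limit. The median log2 fold change of the 5 partner and chaperone genes was −0.19, −0.15, 0.15 and 0.18 in the 4 comparisons with controls, in the order used for Ahrr, against −0.01, 0.00, 0.01 and 0.04 over all genes.

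Among the 16 tested targets other than the 5 genes, 2, 3, 2 and 4 were higher DEGs in that order, beside 3.47%, 5.67%, 4.34% and 7.28% of all genes, and every DEG of the list was higher than in controls. The median log2 fold change of the list was −0.12, 0.22, 0.30 and 0.31, and 7, 9, 10 and 11 of the 16 had values above 0. Xdh was lower after 75 Gy at 6 weeks (−0.79, adjusted p = 0.000448 in edgeR's quasi-likelihood test) but under the fold limit. The DEGs were mainly not enzymes of the receptor's battery. Serpinb2, which encodes a plasminogen activator inhibitor, was at 0 to 0.101 CPM in controls of 2 weeks, at 0.160 to 0.839 CPM after 65 Gy and at 0.488 to 1.76 CPM after 75 Gy. The log2 fold changes of 3.34 (SE 0.85, adjusted p = 0.0210) and 4.46 (SE 0.83, adjusted p = 0.00159) started from 0 to 5 counts per control library. The call after 65 Gy was lost without 3127, 3128 or 3129, with an adjusted p of up to 0.0945.

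Ereg and Areg, ligands of the epidermal growth factor receptor, rose at both doses at 6 weeks. Ereg was at 0.187 ± 0.0594 CPM in controls (SD, n = 3), at 1.53 and 3.84 CPM after 65 Gy and at 6.53 ± 2.23 CPM after 75 Gy (n = 3), with log2 fold changes of 3.82 (SE 0.82, adjusted p = 0.00703) and 5.10 (SE 0.80, adjusted p = 0.000275). At 2 weeks it rose after 75 Gy by 3.02 (SE 0.74, adjusted p = 0.00875), but without 3134, which held 5.73 CPM, the value was 1.87 and no longer a DEG. Areg was at 3.01 ± 0.673 CPM in controls of 6 weeks (n = 3), 6.66 and 13.2 CPM after 65 Gy and 21.0 ± 7.50 CPM after 75 Gy (n = 3). Its log2 fold changes were 1.72 for 65 Gy (SE 0.42, adjusted p = 0.0147) and 2.80 for 75 Gy (SE 0.40, adjusted p = 0.000158). Without 3140 the 65 Gy values were 3.03 for Ereg and 1.16 for Areg, and neither was a DEG, nor was Areg without 3136.

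Slc7a5, a transporter of large neutral amino acids that include tryptophan, rose at 2 weeks from 7.03 ± 0.571 CPM to 14.4 ± 1.35 CPM after 65 Gy and 14.4 ± 3.29 CPM after 75 Gy (SD, n = 3 each). Its log2 fold changes of 1.04 (SE 0.14, adjusted p = 0.000365) and 1.03 (SE 0.14, adjusted p = 0.000233) were close to the fold limit, so that the call was lost without 3126 for both doses, without 3130 for 65 Gy and without 3134 for 75 Gy, with a lowest value of 0.84. After 75 Gy at 6 weeks, Gsta1 rose by 1.16 (SE 0.27, adjusted p = 0.00379) at 0.869 to 1.41 CPM, with the same reserve on reads shared with Gsta2. Scin, an actin-severing protein, rose by 1.98 (SE 0.64, adjusted p = 0.0254), and this call was lost without any of 4 libraries (3135, 3136, 3142 and 3143).

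Enzymes that break down tryptophan, whose products include ligands of the receptor, held 12 tested genes, with Aadat too low. Of these, 2, 3, 3 and 3 were higher DEGs in the 4 comparisons, beside 3.47%, 5.67%, 4.34% and 7.28% of all genes, and the list medians were 0.33, 0.76, 0.20 and 0.35. Kynu, the kynureninase gene, was at 3.58 ± 0.855 CPM in controls of 2 weeks, 12.6 ± 1.06 CPM after 65 Gy and 15.5 ± 3.73 CPM after 75 Gy (SD, n = 3 each). At 6 weeks it was at 3.80 ± 1.51 CPM (n = 3), 11.9 ± 0.609 CPM (n = 2) and 13.2 ± 0.308 CPM (n = 3). It rose by 1.82 (SE 0.24), 2.11 (SE 0.24), 1.64 (SE 0.26) and 1.79 (SE 0.24), with adjusted p of at most 0.000900.

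Il4i1, an L-amino acid oxidase known to make AHR ligands from tryptophan, was at 2.36 to 4.91 CPM in the 6 controls and at 8.12 to 20.2 CPM in the 11 irradiated libraries. Its log2 fold changes were 1.50 and 1.99 at 2 weeks (SE 0.29 each, adjusted p of 0.00373 and 0.000299). They were 1.68 and 1.47 at 6 weeks (SE 0.31 and 0.29, adjusted p of 0.00294 and 0.00128), and that of 65 Gy at 6 weeks was not a DEG without 3138. Tdo2, tryptophan dioxygenase, rose at 6 weeks from 0.609 ± 0.199 CPM (n = 3) to 3.24 ± 0.292 CPM after 65 Gy (n = 2) and 4.65 ± 0.215 CPM after 75 Gy (n = 3). These log2 fold changes were 2.41 (SE 0.35, adjusted p = 0.000489) and 2.93 (SE 0.33, adjusted p = 2.56e-05), whereas that of 75 Gy at 2 weeks, 1.07 (SE 0.32, adjusted p = 0.0242), was lost without 3127, 3128 or 3132. Ido1, the interferon-inducible dioxygenase, had log2 fold changes from −1.24 to 0.80 and was no DEG. Haao rose by 1.02 (SE 0.20, adjusted p = 0.0214) between controls of 2 and 6 weeks.

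The macrophage markers were also higher in irradiated lungs, with 3, 3, 5 and 4 of 5 genes as higher DEGs, beside the same 3.47%, 5.67%, 4.34% and 7.28% of all genes, and medians of 1.39, 1.77, 1.46 and 1.62. Their part in the levels of Arnt2 and of the tryptophan enzymes was not tested.

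Xenobiotic enzymes and receptors outside the AHR battery held only lower DEGs. Of 16 tested genes, with Nr1i3 too low, 1, 4, 2 and 3 were lower DEGs, beside 0.88%, 2.07%, 0.943% and 3.13% of all genes, and the list medians were −0.60, −0.62, −0.30 and −0.38. Of the 16, 2, 2, 5 and 5 had values above 0. Under the fold limit, Ephx1 rose by 0.78 and 0.67 at 2 weeks (adjusted p of 0.00424 and 0.00555 in edgeR's quasi-likelihood test). Nr1i2 (0.88, adjusted p = 0.00699) and Gstt1 (0.49, adjusted p = 0.00446) rose likewise after 75 Gy at 6 weeks. Fmo1, a flavin monooxygenase, was at 439 to 485 CPM in the 6 controls and at 63.5 to 230.5 CPM in the irradiated libraries. Its log2 fold changes were −1.22 and −1.54 at 2 weeks (SE 0.29 and 0.30, adjusted p of 0.0157 and 0.00203) and −1.16 and −1.65 at 6 weeks (SE 0.34 and 0.30, adjusted p of 0.0324 and 0.000765). After 65 Gy these calls were lost without 3129 or 3131 at 2 weeks and without any of 5 libraries at 6 weeks (3135 to 3138 and 3140). After 75 Gy at 2 weeks the call held when any single library was left out but was lost under another setting.

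Cyp4b1, which is abundant in lung, was at 484 to 612 CPM in controls and at 130 to 338 CPM in irradiated lungs. It fell by 1.26 (SE 0.22, adjusted p = 0.00101) after 75 Gy at 2 weeks and by 1.05 after 65 Gy (SE 0.25, adjusted p = 0.0121) and 1.31 after 75 Gy (SE 0.22, adjusted p = 0.000429) at 6 weeks. The first call was lost without 3134 and the second without 3138 or 3140. Cyp2e1 fell by 1.79 (SE 0.40, adjusted p = 0.00547) and Fmo2 by 1.15 (SE 0.26, adjusted p = 0.00600) after 75 Gy at 2 weeks, the latter not without 3134. Cyp2f2, the main cytochrome of club cells, fell by 1.24 (SE 0.29, adjusted p = 0.00454) after 75 Gy at 6 weeks.

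Endothelial markers were lower in the same comparisons. Of these 10 genes, 4, 5, 2 and 7 were lower DEGs, beside 0.88%, 2.07%, 0.943% and 3.13% of all genes, with medians of −0.86, −1.01, −0.93 and −1.34. Of the 6 club cell markers, which include Cyp2f2, and of the 5 alveolar type 1 markers, 1 each was a lower DEG after 75 Gy at 6 weeks and none elsewhere. The club cell medians were −0.20, −0.49, −0.20 and −0.46, and the alveolar type 1 medians −0.35, −0.34, −0.27 and −0.35. None of the 5 alveolar type 2 markers was a DEG, with medians of −0.07, −0.13, 0.01 and −0.13. Fibroblast markers held 1 higher DEG of 5 after 75 Gy at 6 weeks and medians of −0.48, −0.33, 0.47 and 0.42. Among 5 pericyte and smooth muscle markers, with medians of −0.19, −0.54, −0.16 and −0.23, the pericyte gene Rgs5 was a higher DEG in each comparison (1.68, 1.53, 1.77 and 1.99). The pericyte markers Pdgfrb (−0.27, −0.55, −0.48 and −0.63) and Cspg4 (0.15, −0.17, −0.15 and −0.23) were DEGs in none. Of the 8 hepatocyte markers only Alb and Ahsg could be tested. Both were higher DEGs after 75 Gy at 6 weeks, at up to 1.90 and 2.35 CPM, and Ahsg was also one after 65 Gy at 6 weeks (1.60, adjusted p = 0.00435). The part of these cells in the levels of the enzymes was not tested. In library 3134, which held the lowest Cyp1a1, Ahr, Nqo1, Ugt1a6a, Fmo1 and Cyp4b1, endothelial (1803 CPM) and club cell (6512 CPM) markers were also lowest. So were alveolar type 1 (1988 CPM), alveolar type 2 (14885 CPM) and pericyte and smooth muscle (320 CPM) markers. Fibroblast (1511 CPM) and macrophage (12664 CPM) markers were not lowest there.

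**Figure D5:**
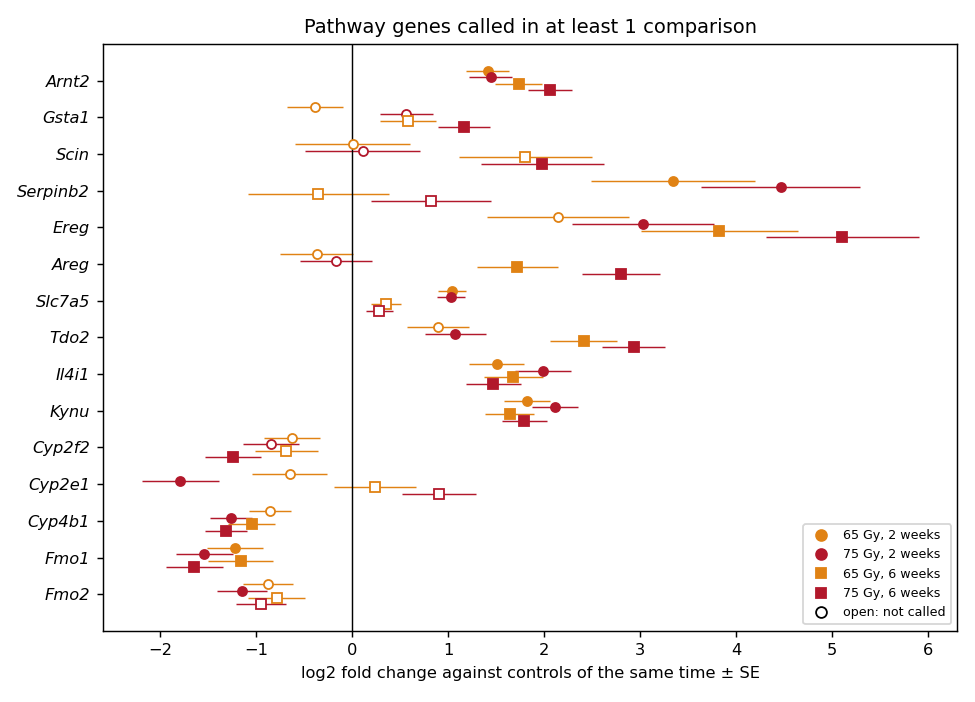
Log2 fold changes with their SE for the 15 genes of the AHR-related lists that were a DEG in at least 1 of the 4 comparisons with controls, with filled symbols for DEGs and open symbols otherwise. Arnt2, Il4i1 and Kynu lie right of 1.4 in each comparison, and the flavin monooxygenases and Cyp4b1 lie left of 0.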

How the data were processed

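The 17 libraries were prepared by the authors with a stranded mRNA kit and sequenced in pairs. Trimmomatic, HISAT2 (on GRCm38.p6) and StringTie were used by the authors, who deposited raw read counts per gene, whole numbers that had not been normalized. How counts were taken from that output is not given in the sources used here, nor is the use of strand, so genes that share exons are uncertain. Counts on 45777 genes were fitted with edgeR 4.0.16 in R 4.3.3, with 1 coefficient per group. The function filterByExpr (minimum count 10, minimum total 15) kept 22052 genes, TMM factors scaled libraries, and the quasi-likelihood F test gave p-values with Benjamini-Hochberg adjustment over all genes tested. Each SE was the absolute log2 fold change divided by the square root of the F statistic. Correlations used log2 CPM with a prior count of 2. Alternatives were DESeq2 1.42.0, edgeR's exact test, other filters and scalings, no fold limit, only the groups compared, and each library left out in turn.

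The 5 genes and all lists of genes were chosen with earlier results of these data known. Named genes were the 5 genes, each list gene called in at least 1 comparison with controls, and the 5 genes with the highest r with Cyp1a1 and with Cyp1b1. Other genes were named after their values were seen. Some genes of the lists are not reported here and entered no list count. Gene places are those of RefSeq and exon lengths those of GENCODE, on GRCm38.p6. The steps were tested on simulated data.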

Additional observations from a re-analysis of the deposited data

Results flagged for a closer look

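The effect of 75 Gy on Areg, a ligand of the epidermal growth factor receptor, differed between the times. The log2 fold change against controls was −0.17 at 2 weeks and 2.80 at 6 weeks, a difference of 2.97 (SE 0.55) with an adjusted p of 0.0329 in edgeR's quasi-likelihood test, where 0.254% of all genes passed both limits. The adjusted p was 0.0516 in the fit of only the groups compared, and the call was lost in 8 of the 17 fits that left out 1 library, with an adjusted p of up to 0.0944. With 12.7 CPM, control 3126 of 2 weeks stood above 3127 (6.45 CPM) and 3128 (5.45 CPM), and the difference was 2.50 without 3126. All controls of 6 weeks were below those of 2 weeks, where 23.6% of genes had no overlap. Their log2 fold change was −1.45 (SE 0.39, adjusted p = 0.0849 in edgeR's quasi-likelihood test). The difference of 2.97 therefore includes this change in the controls.

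After 75 Gy, Cyp2e1 was below every control at 2 weeks (log2 fold change −1.79) and above every control at 6 weeks (0.90), where 30.2% and 57.1% of all genes had no overlap in either direction. The difference of 2.69 (SE 0.56) missed the limit with an adjusted p of 0.0605 in edgeR's quasi-likelihood test. After 65 Gy, Gstt1 was below every control at 2 weeks (−0.18, adjusted p = 0.374) and above every control at 6 weeks (0.27, adjusted p = 0.168), where 29.4% and 56.3% of genes had no overlap. The difference of 0.45 (SE 0.17) had an adjusted p of 0.528.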

How the results depend on the processing

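No paired analysis was possible because no library number occurs in more than 1 group. Counts of the 5 genes are again a description. Of the 5 genes, the 1 DEG after 65 Gy at 2 weeks became 0 with DESeq2, with no filter except 1 count and with upper-quartile factors, and it was 0 to 1 when a library was left out, with 1 after leaving out 3126, 3127, 3132, 3134, 3138 or 3140. After 75 Gy at 6 weeks, 1 of the 5 (Ahr) passed with no fold limit, as 36% of all genes did, and 1 in the fit of only the groups compared, against 0 otherwise. With a library left out, the log2 fold change of Cyp1a1 ranged from −4.78 to −1.87 and from −1.18 to 1.73 for 65 and 75 Gy at 2 weeks and from −1.32 to 2.23 for 65 Gy at 6 weeks.

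Of the 49 list genes tested, 5, 7, 6 and 8 were higher and 1, 4, 2 and 3 lower in the 4 comparisons. Over all genes tested, 3.47%, 5.67%, 4.34% and 7.28% were higher and 0.88%, 2.07%, 0.943% and 3.13% lower DEGs. With no fold limit, 11 were higher after 75 Gy at 2 weeks and 16 at 6 weeks, and 6, 12 and 11 were lower after 65 Gy at 2 weeks and 75 Gy at 2 and 6 weeks. Over all genes tested, 11.8% and 18% were then higher and 4.29%, 10.5% and 18% lower in those comparisons. The 1 lower gene after 65 Gy at 2 weeks became 2 with DESeq2, with the exact test and in the fit of only the groups compared, and the 4 after 75 Gy at 2 weeks became 1 in that fit. When 1 library was left out, 4 to 6, 5 to 8, 4 to 7 and 7 to 10 were higher and 0 to 2, 2 to 7, 0 to 3 and 3 to 4 lower, and a lone 65 Gy library of 6 weeks was then assumed to vary like the other groups. The lower genes after 65 Gy at 2 weeks were 2 without 3126, 3130, 3132 or 3134 and 0 without 3131. Those at 6 weeks were 0 without 3138 or 3140 and 1 without 3135, 3136 or 3137. After 75 Gy at 2 weeks they were 7 without 3132 or 3133 and 2 without 3134. The cause was not tested. Other scalings moved the log2 fold changes of the 5 genes and of the list genes named by at most 0.0445, and no alternative reversed a called value. Groups of 2 or 3 libraries and 12 to 65 counts of Ahrr limit the precision.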

Other observations

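The 21 genes with their 4 highest libraries in 3128, 3132, 3133 and 3138 were, besides Cyp1a1, Nqo1 and Ugt1a6a, the carboxylesterases Ces1f, Ces1g and Ces1h, the transcription factor Sox4, the hedgehog ligand Shh, the heme transporter Slc48a1, and Adi1, Bbs10, Cdh22, Grrp1, Kcnq1, Lrfn1, Pomk, Tmem102, Vash1, Zfp937, 2810459M11Rik and LOC115485728. They were found by search after the values of Cyp1a1 were seen.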
